A study of Homo sapiens with 6 samples.

Results

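The plasminogen activation system and a group of serpins, some of which inhibit it, were followed through 9 genes. The genes were taken by symbol from the 62703 genes counted in each library. They are PLAU, PLAT and PLAUR, which encode the activators uPA and tPA and the receptor uPAR, and the serpins SERPINE2, SERPINB2, SERPINB6, SERPINB7, SERPINB8 and SERPINA1. All 9 were found, and all 9 had enough counts to be tested. RNA was sequenced in bulk from MDA-MB-231, an established human line from a triple-negative breast tumour, in 2 groups of 3 libraries that differ in the hairpin they carry. The shControl group carries a control short hairpin RNA and the shRNF20 group hairpin RNA against RNF20, the ubiquitin ligase that with RNF40 marks histone H2B in transcribed genes. Neither the number of hairpins nor the use of pools or clones is stated in the labels, and none says that replicates were separate cultures, so p-values measure the spread between these libraries only.

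In this system the serine proteases uPA and tPA cut plasminogen into plasmin, which dissolves fibrin and activates other matrix proteases. uPAR, anchored in the membrane by a lipid, holds uPA at the cell surface, and the pair is known in breast cancer for its part in invasion. A serpin offers its target protease a flexible loop, and on cleavage of that loop the serpin refolds and traps the protease in a covalent complex.

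Both activators and all 6 serpins fell in the shRNF20 libraries, while PLAUR did not pass the test. Among the 15797 genes tested, 29.8% passed as lower and 58.4% in either direction (edgeR's quasi-likelihood test, Benjamini-Hochberg adjusted p under 0.05 over all genes tested). The median log2 fold change of the 9 genes was -2.23, against -0.01 over all genes tested. In 7 of the 9 genes no shRNF20 library reached the lowest shControl library, as 32.8% of all genes tested did. The 9 genes were proposed with earlier results of these data known, so these counts describe the set and are no support for a change particular to it.

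The stretches of promoter below are the 250 bases before a RefSeq start site (GRCh38.p14), shown because the serpins of 1 gene cluster fell and PLAUR did not, and because these starts differ in the short motifs they hold. Capitals mark matches on either strand. The motifs are TGANTCA (an AP-1-like pattern), GGGCGG (the Sp1 box), TATAAA (the promoter box bound by TBP) and CCGGAA (an ETS motif). N is any base, and TGANTCA reads the same way on both strands. In SERPINB8 TATAAA matches on opposite strands overlap. CACGTG (the E-box of USF factors) was also searched and is in none of those shown.
PLAU (chr10:73910882-73911131, plus strand): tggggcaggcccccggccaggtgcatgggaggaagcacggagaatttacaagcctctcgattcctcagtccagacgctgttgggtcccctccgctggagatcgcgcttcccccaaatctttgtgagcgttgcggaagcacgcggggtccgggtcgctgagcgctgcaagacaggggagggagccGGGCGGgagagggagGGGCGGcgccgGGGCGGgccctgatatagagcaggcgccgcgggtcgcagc
PLAUR (chr19:43670170-43670419, minus strand): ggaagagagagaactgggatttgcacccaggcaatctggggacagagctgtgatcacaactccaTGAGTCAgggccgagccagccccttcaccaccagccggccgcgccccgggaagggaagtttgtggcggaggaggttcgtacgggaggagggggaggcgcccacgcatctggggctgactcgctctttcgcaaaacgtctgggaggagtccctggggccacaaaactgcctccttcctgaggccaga
SERPINB2 (chr18:63887455-63887704, plus strand): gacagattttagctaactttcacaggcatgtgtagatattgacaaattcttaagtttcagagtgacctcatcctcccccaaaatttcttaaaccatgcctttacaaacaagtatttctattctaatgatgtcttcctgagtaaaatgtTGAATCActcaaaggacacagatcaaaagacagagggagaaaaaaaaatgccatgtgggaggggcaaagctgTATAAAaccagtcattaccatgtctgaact
SERPINB7 (chr18:63777531-63777780, plus strand): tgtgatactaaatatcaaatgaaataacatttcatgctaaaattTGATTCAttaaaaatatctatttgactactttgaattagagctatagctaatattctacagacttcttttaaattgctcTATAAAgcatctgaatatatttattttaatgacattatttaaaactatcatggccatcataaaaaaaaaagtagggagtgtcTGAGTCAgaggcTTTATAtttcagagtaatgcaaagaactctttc
SERPINB8 (chr18:63969831-63970080, plus strand): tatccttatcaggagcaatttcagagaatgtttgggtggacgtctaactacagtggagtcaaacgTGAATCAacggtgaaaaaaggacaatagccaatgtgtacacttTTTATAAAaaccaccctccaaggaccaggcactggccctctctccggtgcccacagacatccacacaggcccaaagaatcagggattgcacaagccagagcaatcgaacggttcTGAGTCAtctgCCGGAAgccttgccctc

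RefSeq windows were matched for 8 of the 9 genes, 16 windows in all, and not for PLAT. TGANTCA stood in 5 of these windows, belonging to 4 genes: PLAUR, SERPINB2, SERPINB8 and 2 starts of SERPINB7. The motif was found in 6.57% of the 35116 windows of all genes. In SERPINB7 and SERPINB8 a match lay 45 and 28 bases before the start shown, in SERPINB2 102 bases before it and in PLAUR 186 bases before it. Of the 2 PLAU windows, that shown held 3 matches to GGGCGG, 66, 51 and 40 bases before the start. GGGCGG stood in 7 of the 16 windows, belonging to 4 genes (PLAU, SERPINE2, SERPINB6 and SERPINA1), and in 42.6% of all windows. The other PLAU window held no match to any motif searched. TATAAA, found in 10.7% of all windows, stood 30 bases before the SERPINB2 start. In the SERPINB7 window shown it stood 127 bases before the start, and on the opposite strand, as TTTATA, 33 bases before it. In SERPINB8 the overlapping matches stood 142 and 140 bases before the start. CCGGAA, found in 14.5% of all windows, stood 17 bases before the SERPINB8 start and, on the opposite strand, 12 bases before a SERPINB6 start. CACGTG, found in 6.34% of all windows, stood in 1 of the 16. Matches to TGANTCA occurred before SERPINB2, SERPINB7 and SERPINB8, which fell, and before PLAUR, which did not pass. The letters were TGAATCA in SERPINB2 and TGAGTCA in PLAUR. SERPINB7 held TGAGTCA and TGATTCA, and SERPINB8 TGAGTCA and TGAATCA. No window of PLAU, SERPINE2, SERPINB6 or SERPINA1, which also fell, held a match. The SERPINB2 window held 37.2% G and C bases and the SERPINB7 window shown 26%, below the 58% median of all windows. The other SERPINB7 windows held 52% and 36.8%, also below it. The PLAU window shown (68.8%) and that of PLAUR (63.2%) lay above the median, and the other PLAU window (46.8%) below. A match is a description of letters and not of factor binding.

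The gene counts summed to 21988826 to 29685306 per library, and levels are given as CPM, counts per 1e6 counts on library sizes scaled by TMM. RNF20 itself stood at 57.8, 58.5 and 58.0 CPM with the control hairpin, against 14.1, 12.2 and 11.1 CPM with the RNF20 hairpin, 4.66-fold lower with the hairpin (edgeR adjusted p = 5.23e-06 for a log2 fold change of -2.22 with an SE of 0.11). Vimentin (VIM) and CD44, known markers of this line, were at 637 and 822 CPM in shControl and both fell, to 475 and 351 CPM, while the keratins KRT8 and KRT18 were at 613 and 207 CPM in shControl and 748 and 180.2 CPM in shRNF20. The oestrogen receptor ESR1 was at 0.0997 and 1.44 CPM in the 2 groups, the progesterone receptor PGR had 5 or fewer counts in any library, and ERBB2 was at 102 and 139 CPM. The 6 leukocyte markers summed to 1.58 to 2.96 CPM in shControl and 3.55 to 3.995 CPM in shRNF20, and CD3E, a marker of T cells, had 1 count or none in every library. CD14 of monocytes was higher in shRNF20 (1.41 to 3.08 CPM), and PTPRC, on all leukocytes, had 7 to 24 counts in every library. CD68 of macrophages had 1 count or none but shares 85.8% of its exon bases with other genes, where reads are not counted. The 6 fibroblast and endothelial markers summed to 20.2 to 28.5 CPM and 51.3 to 52.5 CPM, with the endothelial cadherin CDH5 at 3 counts or fewer in every library. Of the 4 tested, COL1A1 (13.2 to 30.2 CPM), COL3A1 (0.128 to 1.201 CPM) and PDGFRB (5.03 to 19.9 CPM) were higher in shRNF20 and PECAM1 (5.12 to 0.659 CPM) lower. Whether the RNA of these markers came from the line itself or from other cells was not tested. The shRNF20 libraries lay much closer to each other than the shControl libraries did. The chi-square per gene between libraries was 2.04 to 6.80 within shRNF20 and 30.7 to 50.8 within shControl, where sampling noise alone gives 1. Mitochondrial genes took 4.91% to 6.22% of gene counts in shRNF20 and 0.934% to 1.38% in shControl. Leaving them out kept all 8 calls among the 9 genes.

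PLAU, the gene of urokinase (ENSG00000122861.16, GRCh38 chromosome 10, 73909177 to 73917497), had the smallest p of the 9 genes and ranked 8 by p among all genes tested. It was at 244, 199 and 194 CPM with the control hairpin, against 34.8, 33.4 and 32.9 CPM with the RNF20 hairpin. Each group was tight, and the lowest shControl library was 5.57 times the highest shRNF20 library. The mean fell from 212 ± 27.3 to 33.7 ± 0.991 CPM (SD, n = 3), or 6.30-fold (edgeR adjusted p = 3.59e-06 for a log2 fold change of -2.65 with an SE of 0.10). Of all genes tested, 1.196% had a log2 fold change as low as that of PLAU or lower. In bulk RNA, fewer cells that express a gene and less of its RNA per cell cannot be told apart.

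PLAU shares 916 of its 2950 annotated exon bases (31.1%) with C10orf55, a gene on the other strand, and a read over both genes is left out of the counts without strand. C10orf55 had 4, 5 and 7 counts in shControl and 4, 4 and 0 in shRNF20. When the counts of both strands, taken separately, were summed, PLAU stood at 13194, 9477 and 8660 counts in shControl and 1631, 1421 and 1617 in shRNF20. That is 1.73 to 1.93 times the counts without strand, which were 7193, 5039 and 4553 counts in shControl and 904, 736 and 935 counts in shRNF20. The level of PLAU given here thus leaves out reads over the shared bases. Because these libraries do not keep strand, such reads cannot be assigned to either gene by strand. Outside the shared bases, C10orf55 had at most 7 counts in any library and PLAU at least 736. The fold change on the summed columns was -2.67 on the log2 scale.

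PLAT, which encodes tPA, the activator known for its work on fibrin clots (ENSG00000104368.19, GRCh38 chromosome 8, 42175233 to 42207724), was at 279.6, 179.9 and 161 CPM with the control hairpin, against 46.1, 43.0 and 43.6 CPM with the RNF20 hairpin. The shControl libraries spanned 1.73-fold, with replicate 1 the highest, and all stood above every shRNF20 library. The mean fell from 207 ± 63.6 to 44.3 ± 1.62 CPM (SD, n = 3), or 4.68-fold (edgeR adjusted p = 4.07e-05 for a log2 fold change of -2.23 with an SE of 0.19).

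PLAUR, which encodes the receptor uPAR (ENSG00000011422.12, GRCh38 chromosome 19, 43646095 to 43670547), was at 159.9, 162 and 198 CPM with the control hairpin, against 180.1, 182 and 183 CPM with the RNF20 hairpin. The shRNF20 values lay inside the range of shControl, and the gene did not pass, with means of 173 ± 21.4 and 182 ± 1.26 CPM (edgeR adjusted p = 0.551 for a log2 fold change of 0.07 with an SE of 0.09). Its sign is not settled, since the log2 fold change was -0.01 without shControl replicate 1. Per kilobase of annotated exon, the ratio of PLAU to PLAUR was 2.30, 1.86 and 1.48 with the control hairpin, against 0.292, 0.278 and 0.272 with the RNF20 hairpin. With the length of the longest transcript in place of all exons the ratio was 0.923, 0.744 and 0.593 against 0.117, 0.111 and 0.109. On these counts, whether PLAU stood above PLAUR in shControl thus turned with the length used. Both ratios rest on PLAU counts without strand, which leave out reads over the bases shared with C10orf55. Counts summed over the strand columns were 1.73 to 1.93 times as high for PLAU and unchanged for PLAUR. The longest-transcript ratio was not computed on those summed counts. On both lengths every shRNF20 library lay below every shControl library, and an exact permutation test (two-sided) on all-exon lengths gave p = 0.1, the smallest that 3 against 3 can give.

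**Figure D1:**
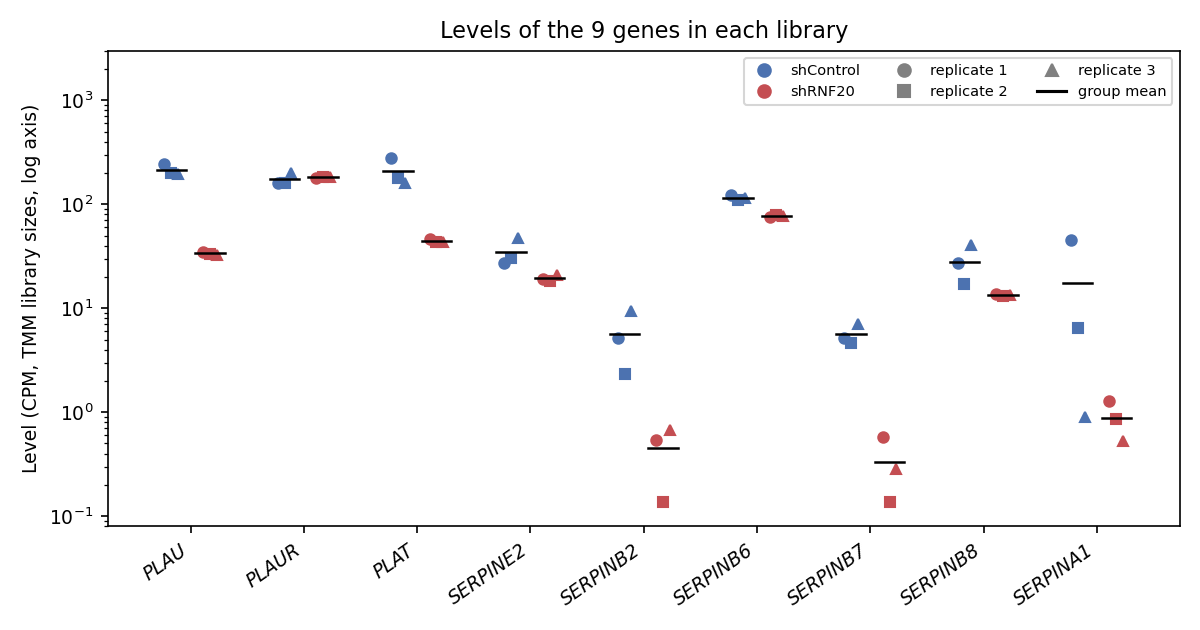
Level of each of the 9 genes in every library, in counts per 1e6 counts on TMM library sizes (log axis). Marker shapes are replicates and black lines are group means. PLAU and PLAT sit apart between the groups, PLAUR overlaps, and SERPINA1 spreads from 0.89 to 45.3 CPM within shControl.

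Of the serpins, SERPINE2 and SERPINB2 inhibit the activators themselves. SERPINE2 encodes protease nexin-1, which inhibits thrombin, uPA and plasmin (ENSG00000135919.14, GRCh38 chromosome 2, 223975112 to 224039319). It was at 27.0, 30.7 and 47.2 CPM with the control hairpin, against 19.2, 18.2 and 20.8 CPM with the RNF20 hairpin. The groups did not overlap, though the lowest shControl library was only 1.30 times the highest shRNF20 library. The mean fell from 34.97 ± 10.8 to 19.4 ± 1.33 CPM (SD, n = 3), or 1.80-fold (edgeR adjusted p = 0.00571 for a log2 fold change of -0.85 with an SE of 0.20). With the 3 shRNF20 libraries added up to 1 sample the call ended (adjusted p = 0.121, edgeR).

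SERPINB2 encodes PAI-2, an inhibitor of uPA and tPA that is mostly kept inside the cell (ENSG00000197632.9, GRCh38 chromosome 18, 63871692 to 63903890). It had low counts in every library, at 154, 59 and 222 counts in shControl and 14, 3 and 19 counts in shRNF20. In CPM it was at 5.21, 2.33 and 9.45 CPM with the control hairpin, against 0.539, 0.136 and 0.668 CPM with the RNF20 hairpin, so that the shControl libraries spanned 4.06-fold and still all stood above shRNF20. The mean fell from 5.67 ± 3.58 to 0.448 ± 0.277 CPM (SD, n = 3), or 12.7-fold (edgeR adjusted p = 0.00119 for a log2 fold change of -3.60 with an SE of 0.61). SERPINB2 shares 547 exon bases (19.9%) with SERPINB10 on the same strand, and reads there are not counted for either gene.

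SERPINB7, SERPINB8 and SERPINB6 also belong to clade B, the branch of serpins that lack a classical signal peptide. SERPINB7, first described as megsin and known for its role in the skin barrier (ENSG00000166396.13, GRCh38 chromosome 18, 63752935 to 63805376), was at 154, 116 and 164 counts in shControl and 15, 3 and 8 counts in shRNF20. In CPM it was at 5.21, 4.58 and 6.98 CPM with the control hairpin, against 0.577, 0.136 and 0.281 CPM with the RNF20 hairpin. The groups stood 7.93-fold apart at their nearest libraries, the widest gap among the 9 genes, and the mean fell from 5.59 ± 1.25 to 0.331 ± 0.225 CPM, 16.9-fold (edgeR adjusted p = 8.10e-05 for a log2 fold change of -4.03 with an SE of 0.40). Without shRNF20 replicate 1, the highest of its group, the log2 fold change was -4.68.

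SERPINB8, an inhibitor of the proprotein convertase furin (ENSG00000166401.15, GRCh38 chromosome 18, 63969925 to 64019779), was at 27.0, 17.0 and 40.4 CPM with the control hairpin, against 13.8, 13.0 and 13.4 CPM with the RNF20 hairpin. The shRNF20 libraries agreed within 1.06-fold and the shControl libraries spanned 2.38-fold. The mean fell from 28.1 ± 11.7 to 13.4 ± 0.392 CPM (SD, n = 3), or 2.10-fold (edgeR adjusted p = 0.00838 for a log2 fold change of -1.07 with an SE of 0.27), and the call ended with the shRNF20 libraries summed to 1 sample (adjusted p = 0.148, edgeR). SERPINB8 shares 627 of its exon bases (10.7%) with HMSD and a gene without a symbol, and reads over several genes are not counted. SERPINB6, an intracellular inhibitor of cathepsin G (ENSG00000124570.21, GRCh38 chromosome 6, 2948159 to 2972165), was at 122, 111 and 115 CPM with the control hairpin, against 76.2, 79.1 and 77.7 CPM with the RNF20 hairpin. Both groups were tight and did not overlap. Its fall, from 116 ± 5.73 to 77.7 ± 1.45 CPM, was the smallest of the 8, at 1.49-fold (edgeR adjusted p = 1.82e-04 for a log2 fold change of -0.58 with an SE of 0.07).

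SERPINA1 encodes alpha-1 antitrypsin, the main blood inhibitor of neutrophil elastase, made chiefly by the liver (ENSG00000197249.14, GRCh38 chromosome 14, 94376747 to 94390693). It was at 45.3, 6.51 and 0.894 CPM with the control hairpin, against 1.27, 0.863 and 0.527 CPM with the RNF20 hairpin. The shControl libraries differed 50.7-fold among themselves, and shControl replicate 3 lay below shRNF20 replicate 1, so the groups overlapped. The log2 fold change of -4.32 (with an SE of 1.23 and an edgeR adjusted p of 0.016) rested mostly on shControl replicate 1, without which it was -2.09 (edgeR adjusted p = 0.0359). The call ended without shControl replicate 2 (adjusted p = 0.0762, edgeR) and without shRNF20 replicate 2 or 3 (adjusted p = 0.0523 and 0.0618, edgeR). It also ended with limma-voom (-3.09, adjusted p = 0.19), without a filter on low counts (adjusted p = 0.172, edgeR) and with the shRNF20 libraries summed (adjusted p = 0.258, edgeR). No other of the 8 calls ended under as many alternatives.

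**Figure D2:**
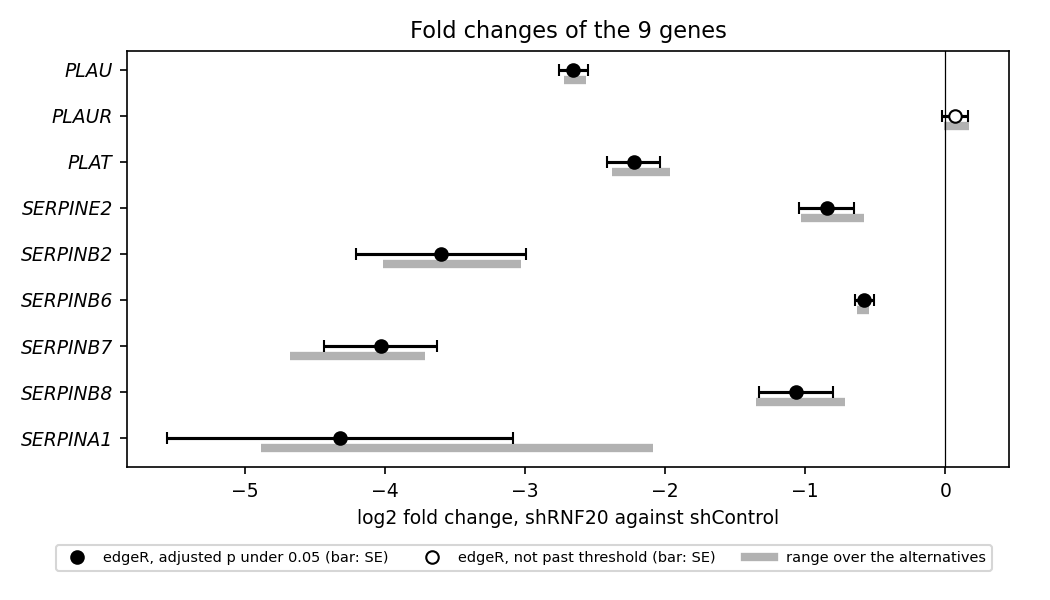
Fitted log2 fold change of each gene, shRNF20 against shControl, with its SE (black) and the lowest and highest value over the 17 alternatives (grey). PLAUR stays near 0, at 0.07, while the grey bar of SERPINA1 runs from -4.88 to -2.09.

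Levels of different genes were compared per kilobase of annotated exon (CPM per kb). In shControl PLAU was the highest of the 9, at 71.9 ± 9.27 CPM per kb (SD, n = 3), followed by PLAUR at 38.9 ± 4.79 and PLAT at 31.3 ± 9.62. The means of PLAUR and PLAT differed by less than the SD of PLAT. SERPINB6 came next at 8.80 ± 0.434, above SERPINB8 (4.79 ± 2.001), SERPINE2 (3.93 ± 1.21), SERPINA1 (3.58 ± 4.93), SERPINB7 (2.12 ± 0.473) and SERPINB2 (2.06 ± 1.30). Among these last 5, each gene overlapped with the next in the order, while every SERPINB8 and SERPINE2 value lay above those of SERPINB7. In shRNF20 the order began with PLAUR at 40.7 ± 0.282 CPM per kb, then PLAU at 11.4 ± 0.336, PLAT at 6.69 ± 0.245 and SERPINB6 at 5.89 ± 0.110, each apart from the next by more than both SDs on this scale. SERPINB8 (2.29 ± 0.0669) and SERPINE2 (2.18 ± 0.150) were alike within their spread, above SERPINA1 (0.181 ± 0.0759), SERPINB2 (0.163 ± 0.101) and SERPINB7 (0.126 ± 0.0852), which overlapped. On these counts without strand, the order at the top depended on the length used. They leave out reads over the bases that PLAU shares with C10orf55. Summed over the strand columns, PLAU counts were 1.73 to 1.93 times as high. The longest-transcript order below was not computed on those summed counts, so it may not hold on them. With longest transcripts, PLAUR came first in shControl, at 37.1% of the summed level of the 9 genes against 27.3% for PLAU, and in shRNF20 SERPINB6 (8.66%), PLAT (8.004%) and PLAU (7.93%) followed PLAUR (70.6%) in that order.

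As a share of the summed level of the 9 genes per kilobase, PLAU made up 43.0% ± 2.22 in shControl and 16.4% ± 0.412 in shRNF20 (SD, n = 3), and an exact permutation test (two-sided) gave p = 0.1, the smallest possible. PLAUR went from 23.5% ± 4.38 to 58.5% ± 0.739 without a change in its own level that passed. The share of PLAT was 18.5% ± 3.55 and 9.60% ± 0.289. With PLAU counted from the summed strand columns its share was 58.5% in shControl and 26.3% in shRNF20, and with the length of the longest transcript in place of all exons 27.3% and 7.93%. The share of PLAU was lower in shRNF20 on each of these scales. The summed level of the 6 serpins was 30.0, 18.7 and 27.2 with the control hairpin, against 10.96, 10.5 and 10.97 with the RNF20 hairpin, in CPM per kb. The activators PLAU and PLAT together stood at 4.18 ± 0.877 times the 6 serpins in shControl and 1.67 ± 0.0499 times in shRNF20. The libraries did not overlap (exact permutation p = 0.1, two-sided). This ratio does not measure the activators against their inhibitors. Of the 6, only SERPINE2 and SERPINB2 were named above as inhibitors of the activators, and serpins outside the 9 genes are not in the sum. The serpin sum in shRNF20 came mostly from SERPINB6, SERPINB8 and SERPINE2, and gene by gene SERPINB2, SERPINB7 and SERPINA1 had larger folds than PLAU or PLAT.

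**Figure D3:**
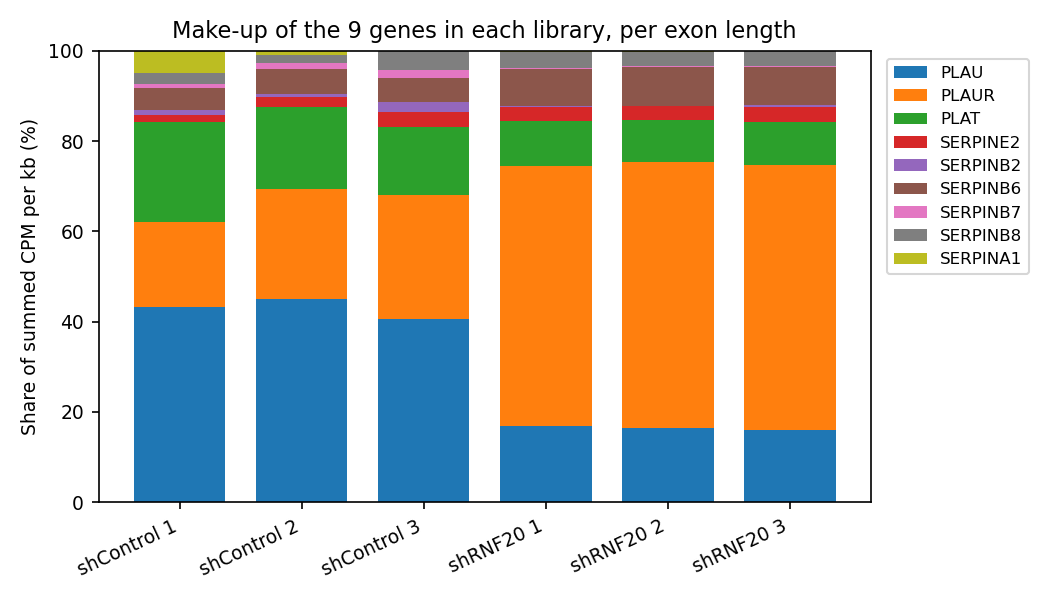
Share of each gene in the summed CPM per kb of the 9 genes, 1 bar per library. PLAU takes 40.7% to 45.1% of the shControl bars and 15.99% to 16.8% of the shRNF20 bars, and PLAUR 57.6% to 59.0% of the latter.

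The serpins fall into gene clusters. SERPINB2, SERPINB7 and SERPINB8 lie on chromosome 18 among 10 serpin genes that start within 500000 bases of SERPINB2. Of these 4 had enough counts to be tested, and all 4 were lower in shRNF20, beside 29.8% of all genes tested. Of the 4, SERPINB2, SERPINB7 and SERPINB8 were among the 9 genes chosen with earlier results known. The fourth is SERPINB4, squamous cell carcinoma antigen 2, at 47, 82 and 92 counts in shControl and 4, 7 and 7 counts in shRNF20 (edgeR adjusted p = 2.60e-04 for a log2 fold change of -3.59 with an SE of 0.46). SERPINB4 is a near copy of its neighbour SERPINB3, and since reads that map to several places are not counted, its counts are uncertain. The other 6 (SERPINB3, SERPINB5, SERPINB10, SERPINB11, SERPINB12 and SERPINB13) each had at most 30 counts over all 6 libraries. The 2 other coding genes tested in the window went different ways: VPS4B, an ATPase of membrane remodelling, was higher (log2 fold change of 0.26 with an SE of 0.10 and an edgeR adjusted p of 0.0417), and HMSD, which overlaps SERPINB8, was lower (log2 fold change of -1.56 with an SE of 0.21 and an edgeR adjusted p of 3.54e-04). The call of VPS4B ended on leaving out any 1 library other than shControl replicate 3 (edgeR adjusted p from 0.0992 to 0.159). These neighbours, and those of the other clusters, were looked up after the values of the 9 genes were seen.

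SERPINB6 lies on chromosome 6 with SERPINB1 and SERPINB9. SERPINB1, an inhibitor of neutrophil proteases, fell from 147 ± 4.603 to 63.8 ± 0.828 CPM (edgeR adjusted p = 7.94e-06 for a log2 fold change of -1.21 with an SE of 0.07). SERPINB9, the inhibitor of granzyme B, was at 96.0, 75.8 and 62.4 CPM with the control hairpin, against 75.6, 77.4 and 77.7 CPM with the RNF20 hairpin, overlapping, and did not pass (edgeR adjusted p = 0.898 for a log2 fold change of -0.02 with an SE of 0.14). Adjacent serpins of 1 cluster thus differed in whether they passed. Of 8 other coding genes tested in that window, 2 were lower (NQO2 at -0.50 and SLC22A23 at -0.75), 1 was higher (TUBB2A at 0.66) and 5 did not pass; the call of SLC22A23 ended on leaving out any 1 library other than shControl replicate 1 (edgeR adjusted p from 0.0696 to 0.124). SERPINA1 stands in a cluster of 9 clade A genes on chromosome 14, of which the other 8 each had at most 3 counts over all 6 libraries. The 6 other coding genes tested that start within 500000 bases of SERPINA1 all passed as lower, beside 29.8% lower over all genes tested. They ran from DDX24 (-0.43) to ASB2 (-2.47). All lie outside the serpin cluster and on the same side of it, starting at 93934153 to 94127779. The first serpin gene starts at 94280455. DDX24 and OTUB2 share 640 exon bases.

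**Figure D4:**
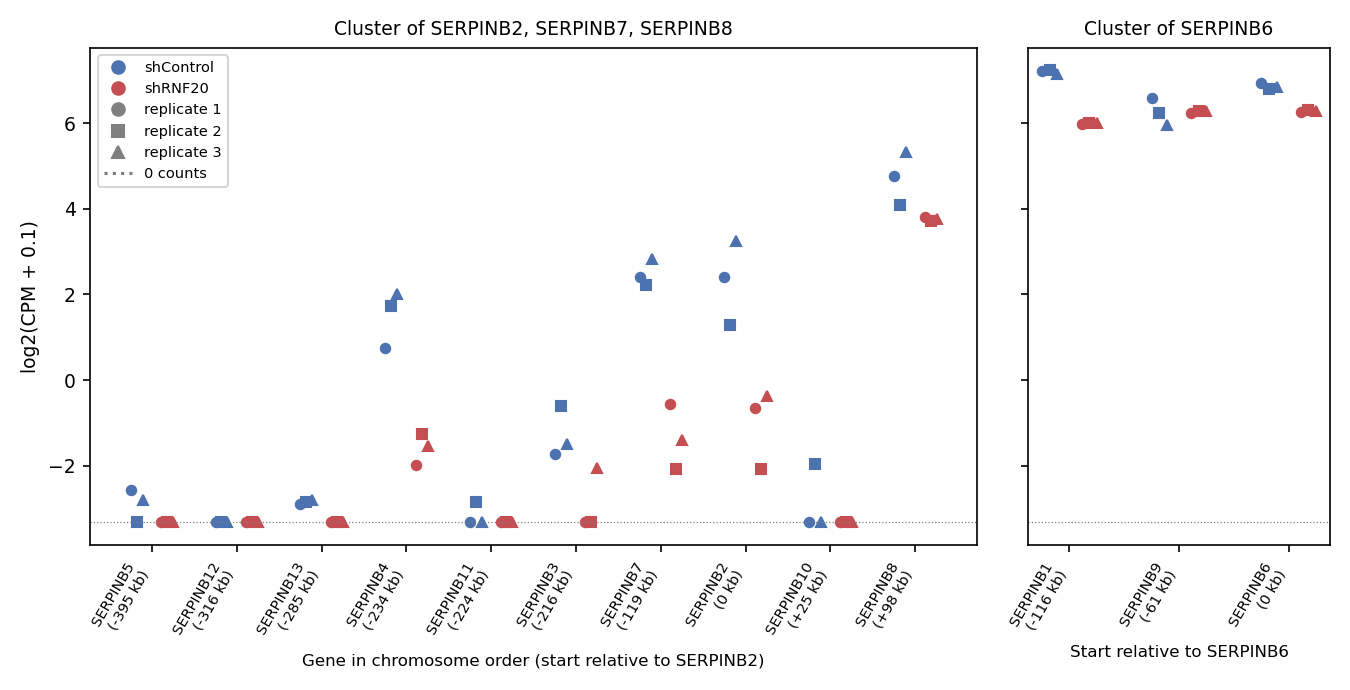
log2(CPM + 0.1) of every serpin gene in the chromosome 18 cluster (left) and the chromosome 6 cluster (right), in chromosome order, 1 point per library. Tested genes of the left cluster are all lower in shRNF20, whereas SERPINB9 on the right overlaps between SERPINB1 and SERPINB6.

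Beyond the 9 genes the counts hold 28 protein-coding serpin genes, of which 9 could be tested. Of these 4 fell, 3 rose and 2 did not pass, beside 29.8% lower and 28.7% higher over all genes tested. The median log2 fold change of these 9 other serpins was -0.86. Besides SERPINB1 and SERPINB4, the fallers included SERPIND1, heparin cofactor 2 (log2 fold change of -2.81 with an SE of 0.75 and an edgeR adjusted p of 0.0112), at 50, 30 and 11 counts in shControl and 0, 5 and 7 counts in shRNF20. The risers were SERPINF2, the plasma inhibitor of plasmin, from 0.727 ± 0.0559 to 2.28 ± 0.474 CPM (log2 fold change of 1.64 with an SE of 0.27 and an edgeR adjusted p of 0.00104), SERPINF1, the secreted factor PEDF, from 1.79 ± 0.360 to 3.87 ± 0.721 CPM (log2 fold change of 1.10 with an SE of 0.25 and an edgeR adjusted p of 0.00476) and the collagen chaperone SERPINH1, from 325 ± 4.57 to 382 ± 5.21 CPM (log2 fold change of 0.23 with an SE of 0.06 and an edgeR adjusted p of 0.00954). The call of SERPINH1 ended without any 1 of the shRNF20 libraries (edgeR adjusted p from 0.0512 to 0.0693). SERPINI1 did not pass (log2 fold change of -0.86 with an SE of 0.36 and an edgeR adjusted p of 0.0674), but passed as lower without shControl replicate 1 (-1.18, edgeR adjusted p = 0.00781).

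Partners and regulators of the system were taken as 7 lists of 55 genes. Of the 47 tested, 22 fell, 7 rose and 18 did not pass; their median was -0.23, beside 29.8% lower and 28.7% higher over all genes tested. The substrate itself, PLG, had 0 counts in every library, which allows up to 3 counts in a library and says only that its mRNA was not detectable at this depth. Among genes that bind plasminogen at the cell surface 4 were tested. The annexin ANXA2 rose from 1371 ± 49.7 to 1622 ± 35.4 CPM (log2 fold change of 0.24 with an SE of 0.07 and an edgeR adjusted p of 0.012) and its partner S100A10 from 241 ± 8.89 to 283 ± 2.11 CPM (log2 fold change of 0.23 with an SE of 0.06 and an edgeR adjusted p of 0.0121). The receptor PLGRKT fell from 13.3 ± 2.54 to 9.31 ± 0.370 CPM (log2 fold change of -0.51 with an SE of 0.16 and an edgeR adjusted p of 0.0246) and enolase ENO1 from 2605 ± 184 to 2229 ± 32.9 CPM (log2 fold change of -0.23 with an SE of 0.07 and an edgeR adjusted p of 0.0284). None of the 4 calls held without any 1 of the shRNF20 libraries (edgeR adjusted p from 0.0607 to 0.103), nor did those of PLGRKT and ENO1 without shControl replicate 3 (edgeR adjusted p = 0.0698 and 0.0518).

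Of 13 receptors, integrins and genes of complex uptake, 6 fell and 7 did not pass (median -0.28). The integrin ITGA3, whose protein binds uPAR, fell from 1166 ± 94.6 to 481 ± 12.5 CPM (log2 fold change of -1.28 with an SE of 0.08 and an edgeR adjusted p of 1.13e-05), and ITGB5, a subunit of a vitronectin receptor, from 178 ± 4.12 to 106 ± 3.57 CPM (log2 fold change of -0.75 with an SE of 0.07 and an edgeR adjusted p of 4.21e-05). LRP1, the endocytic receptor that clears activator-serpin complexes, is named here after its value was seen; it stood at 144, 203 and 114 CPM with the control hairpin, against 33.1, 33.0 and 37.4 CPM with the RNF20 hairpin (log2 fold change of -2.15 with an SE of 0.19 and an edgeR adjusted p of 4.63e-05), and no shRNF20 library reached shControl. The integrin subunits ITGB1 (0.05, SE 0.07), ITGAV (0.14, SE 0.07) and ITGA5 (0.13, SE 0.09) did not pass. ITGB3 fell (log2 fold change of -1.54 with an SE of 0.25 and an edgeR adjusted p of 9.01e-04). It shares 51.6% of its exon bases with another gene, and reads there are not counted. These integrins too were chosen after their values were seen.

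Among other activating proteases and their substrates 5 of 9 were tested (median -0.15). MST1R, the receptor of macrophage-stimulating protein, fell (log2 fold change of -1.15 with an SE of 0.13 and an edgeR adjusted p of 1.35e-04), and MST1, the gene of that ligand, rose from 2.996 ± 1.06 to 7.60 ± 0.409 CPM (log2 fold change of 1.34 with an SE of 0.25 and an edgeR adjusted p of 0.00175). MST1 overlaps other genes and has near copies in the genome, so its counts are uncertain. Of 5 coagulation genes tested (median -0.93), 4 fell and 1 rose. Tissue factor F3, which starts clotting, fell from 1560 ± 98.3 to 737 ± 1.55 CPM (log2 fold change of -1.08 with an SE of 0.07 and an edgeR adjusted p of 1.47e-05), the protein C receptor PROCR from 24.9 ± 1.34 to 12.5 ± 0.828 CPM (log2 fold change of -0.99 with an SE of 0.11 and an edgeR adjusted p of 1.05e-04), and THBD and F2RL1 had log2 fold changes of -0.93 and -0.47. The thrombin receptor F2R rose (log2 fold change of 0.48 with an SE of 0.14 and an edgeR adjusted p of 0.0191). The call of F2R ended without any 1 of the shRNF20 libraries (edgeR adjusted p from 0.0559 to 0.0651), and that of F2RL1 without shRNF20 replicate 2 (edgeR adjusted p = 0.0553). Of 4 protease inhibitors outside the serpin family 3 fell (median -0.93). TFPI2, an inhibitor of plasmin and other proteases, fell from 72.8 ± 27.3 to 13.9 ± 0.192 CPM (log2 fold change of -2.39 with an SE of 0.24 and an edgeR adjusted p of 7.50e-05), and the Kunitz inhibitors SPINT2 and SPINT1 by less (-0.76, SE 0.14, and -1.11, SE 0.22).

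Of 12 transcription factors known to act at PLAU or PLAUR, 5 fell, 1 rose and 6 did not pass (median -0.23). The AP-1 subunits JUND and FOSL1 fell from 261 ± 29.2 to 119.6 ± 9.17 CPM (log2 fold change of -1.12 with an SE of 0.10 and an edgeR adjusted p of 4.29e-05) and from 419 ± 12.1 to 268 ± 7.19 CPM (log2 fold change of -0.64 with an SE of 0.06 and an edgeR adjusted p of 7.66e-05). The other AP-1 subunits listed did not pass: JUN (log2 fold change of 0.11 with an SE of 0.08 and an edgeR adjusted p of 0.253), JUNB, FOS and FOSL2. ETS1 (-0.50, SE 0.06), ETS2 (-0.57, SE 0.14) and SP1 (-0.23, SE 0.07) also fell. The call of SP1 ended without shRNF20 replicate 1 or 2 (edgeR adjusted p = 0.105 and 0.0759). The NF-kB subunit RELA rose from 174 ± 15.0 to 238 ± 9.58 CPM (log2 fold change of 0.45 with an SE of 0.08 and an edgeR adjusted p of 0.00161). Of 4 factors that act on mRNA stability, HNRNPC (log2 fold change of 0.32 with an SE of 0.07 and an edgeR adjusted p of 0.00399) and ELAVL1 (log2 fold change of 0.24 with an SE of 0.09 and an edgeR adjusted p of 0.044), which encodes HuR, rose, and ZFP36L1, which speeds decay of AU-rich mRNAs, fell (log2 fold change of -0.47 with an SE of 0.08 and an edgeR adjusted p of 0.00121). The call of ELAVL1 ended on leaving out any 1 library other than shControl replicate 1 (edgeR adjusted p from 0.0679 to 0.1301). The median of this list was 0.21. The part of these factors in the levels of the 9 genes was not tested.

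**Figure D5:**
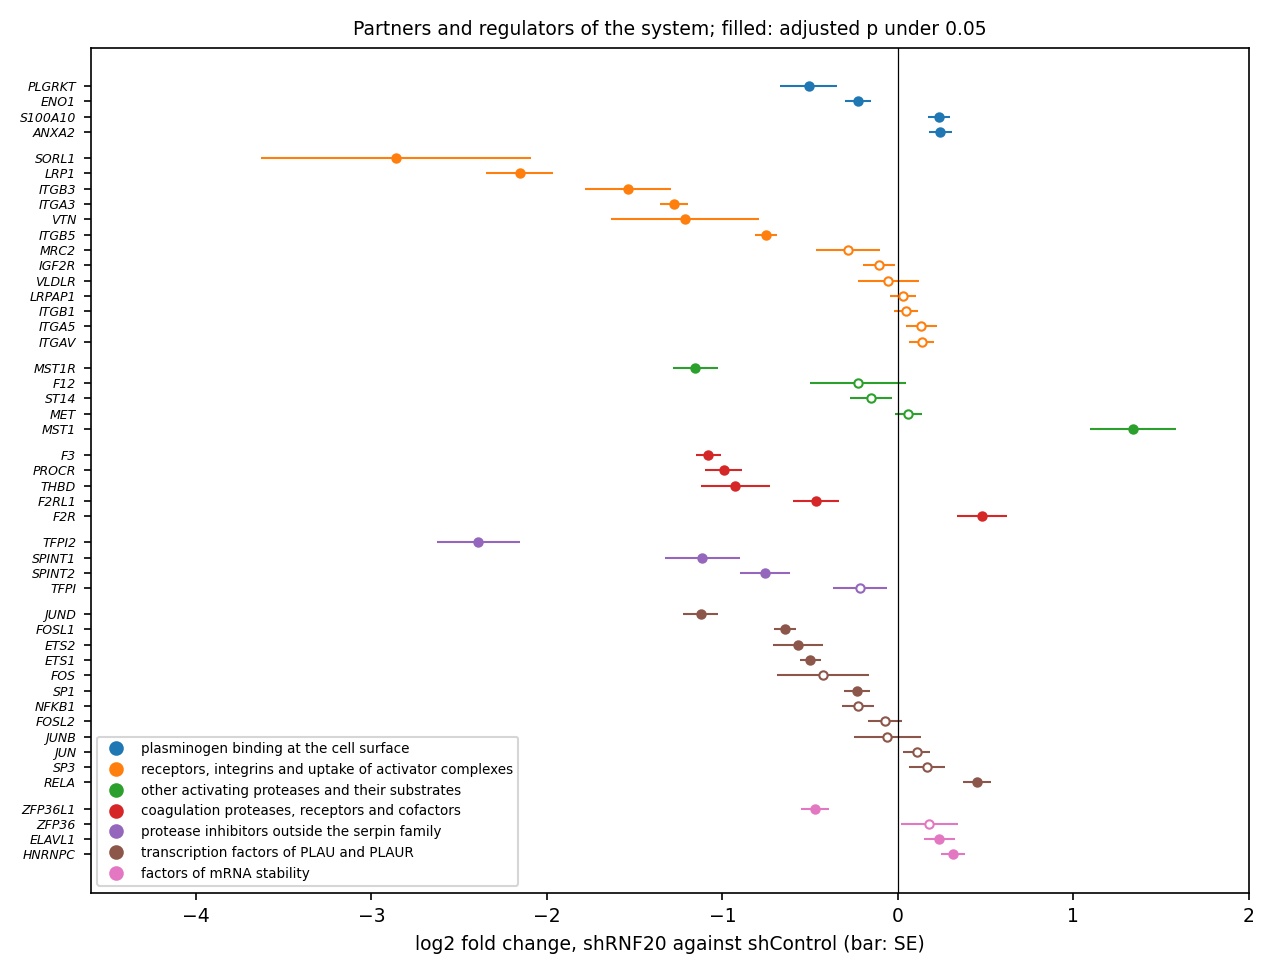
log2 fold change with SE of the 47 tested partner and regulator genes, coloured by list; filled points passed the test. SORL1 (named, like LRP1, after its value was seen) lies farthest to the left at -2.86, but at -1.33 without shControl replicate 1; TFPI2 and LRP1 follow at -2.39 and -2.15, and MST1 is farthest to the right at 1.34.

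By Euclidean distance between log2-CPM profiles centred over the 6 libraries, PLAU lay nearest to PLAT among the 9 genes (0.663) and farthest from SERPINA1 (3.78). SERPINE2 and SERPINB8 were 0.667 apart, and SERPINB2 and SERPINB7 1.48. Among 9859 genes whose log2-CPM averaged 3 or more, the profiles nearest to PLAU were those of CCDC69 (0.221), DNPH1 (0.358) and H6PD (0.365). CCDC69 was at 49.6, 37.7 and 36.4 CPM with the control hairpin, against 7.003, 6.63 and 7.42 CPM with the RNF20 hairpin, with shControl replicate 1 the highest, as for PLAU. With 2 groups of 3 libraries these distances are set mostly by the difference between groups.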

How the data were processed

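The authors deposited read counts per gene for each of the 6 libraries, made with STAR 2.7.11a on hg38 after FastQC 0.12.1, per the submitters' processing notes. No annotation release is named: it is not given in the sources used here. Deposited counts without regard to strand were used. Reads counted to no gene for any reason, those over several genes included, were 20.9% to 24.1% of all reads. Reads over several genes alone were 10.7% to 11.2% of all reads. All of these stayed out of library sizes. Positions and exon lengths came from GENCODE 29. Genes were filtered with filterByExpr (minimum count 10) and tested over all 6 libraries with edgeR 4.0.16's quasi-likelihood test on TMM sizes (R 4.3.3, limma 3.58.1, DESeq2 1.42.0), checked on simulated counts. Adjusted p under 0.05 was the threshold. The 9 genes and all lists were chosen with earlier results of these data known. Genes named were, in each partner list, the 2 with the smallest p and all called where 3 or fewer moved 1 way; the 3 other serpins with the smallest p in each direction and those of the members' clusters; and the 3 profiles nearest to PLAU. SERPIND1, SERPINI1, ITGB1, ITGB3, ITGAV, ITGA5, LRP1, SORL1, THBD and F2RL1 were also named, after their values were seen. So were JUN, JUNB, FOS, FOSL2, ETS1, ETS2 and SP1. Values of 1 serpin that the rule names are not reported here. Replicate numbers did not pair the libraries (deviations correlated at -0.02, 0.03 and 0.03).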

Additional observations from a re-analysis of the deposited data

How the results depend on the processing

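With 17 alternatives, the calls of PLAU, PLAT, SERPINB2, SERPINB6 and SERPINB7 held in all. Calls among the 9 genes numbered 8 lower in the fit reported and 7 to 8 with each library left out in turn. With the 3 shRNF20 libraries summed to 1 sample, which is then assumed to vary like shControl, 1753 genes were higher and 1619 lower, 5 of the 9 genes lower, 1 other serpin higher, and 0 partners higher and 10 lower. Without a filter on low counts, 7 other serpins were lower and 4 partners higher; against a 1.2-fold change 2 partners were higher. Leaving out each library gave 3 to 8 partners higher, with 3 without any 1 of the shRNF20 libraries, 17 to 25 lower, and 3617 to 4755 genes higher and 3906 to 5022 lower. PLAUR ran from -0.010 to 0.17 with each library left out, reversing to -0.010 without shControl replicate 1 and -0.0032 without shControl replicate 2. The share of PLAU was 27.3% and 7.93% with longest transcripts, and 58.5% and 26.3% with PLAU summed over strand columns, an alternative chosen after seeing the data; the first group given is shControl. The fit with the replicate number as a block called 4418 genes higher, 4518 lower and 8 of the 9 genes lower, and changed no member's call. The numbers did not pair the libraries. Low counts limit SERPINB2 and SERPINB7, with 3 counts in their lowest library.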
